A study of Mus musculus with 4 samples.

Results

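Cycling duct epithelial cells are the cells of the bile duct lining that were captured while replicating DNA or dividing. They were chosen by measured values, from unique molecular identifiers (UMIs, each standing for 1 captured transcript). A member had at least 500 detected genes, at most 25% mitochondrial UMIs, no UMI of the leukocyte gene Ptprc and at least 1 UMI each of the epithelial genes Epcam and Krt19. It also had at least 1 UMI of at least 3 of the 6 genes Mki67, Top2a, Ube2c, Birc5, Cenpf and Cdk1. The rule found 335 cells among 19246 that passed the limits on genes and mitochondrial UMIs, out of 22968 barcodes. They were set against 9144 non-cycling duct epithelial cells, which met the same epithelial conditions and held no UMI of any of the 6 genes.

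The study profiled dissociated mouse common bile duct by droplet RNA sequencing, to set normal ducts beside ducts in which Ctnnb1, which encodes beta-catenin, carried a mosaic gain of function. It holds 1 library of the genotype labelled Prom1_BcatGOF (GOF) and 3 wild-type libraries (WT1, WT2 and WT3), with the treatment given as None for all 4 and no sorting of cell types. The allele, the driver of recombination, the share of recombined cells, and the age, strain and sex of the animals are not given in the sources used. The GOF library has no replicate and is assumed in every test to vary like the WT libraries. The labels number the WT libraries as replicates without saying whether they came from separate animals, so a p-value measures the spread between these libraries alone. The GOF library gave 262 cycling cells, and WT1, WT2 and WT3 gave 54, 12 and 7.

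Ctnnb1, the gene named in the genotype, was read out in every library. Its level in cycling cells was 213 CPM (UMIs of the gene scaled to a common class total, with TMM factors between libraries) in GOF and 594, 461 and 462 CPM in WT1, WT2 and WT3. The GOF value lay below all 3 WT values, with a log2 difference of -1.25 ± 0.46 (SE) and an edgeR adjusted p of 0.164. A count near the 3′ end does not check a change elsewhere in the gene, and the labels leave the altered part of Ctnnb1 unnamed.

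A dividing cell first copies its DNA in S phase, using the MCM helicase, the sliding clamp PCNA and enzymes that make deoxynucleotides, and then builds a spindle and separates its chromosomes in G2 and M phase under cyclin A, cyclin B and the Aurora and Polo kinases. E2F factors drive the S phase genes, and B-MYB and FOXM1, acting with the MuvB complex, drive the later ones. The adult bile duct lining renews slowly, with few cells in cycle at any time, and divides more after injury. Beta-catenin is the transcriptional arm of Wnt signalling, with targets that include its own negative regulators Axin2, Nkd1, Notum, Rnf43 and Znrf3.

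The GOF library was the deepest, with 113596685 UMIs in 10796 barcodes, against 9558637 to 43737469 UMIs in 2649 to 6253 barcodes of the WT libraries. Median mitochondrial shares per barcode were 2.99% in GOF and 10.1% to 14.8% in WT. Pairs of libraries shared 5 to 19 cell barcodes. Software version 7.0.0 made the GOF matrix and 3.0.2 the WT matrices, per the file headers, so genotype and processing version cannot be told apart. Of the GOF cycling cells, 121 held UMIs of Xist and of no Y-linked gene counted here, 96 held Y-linked UMIs and no Xist, 26 held both and 19 neither. WT1, WT2 and WT3 held 0 cycling cells with Xist alone and 34, 9 and 4 with Y-linked UMIs alone. Among non-cycling cells, 1643 in GOF and 7, 10 and 2 in WT1, WT2 and WT3 held Xist alone, against 1352 in GOF and 1460, 469 and 298 in WT with Y-linked UMIs alone. Both were held by 2 WT1 cycling cells.

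The 6 genes of the rule are described here without a test. Mki67, a protein that coats mitotic chromosomes, had UMIs in 88.2% of GOF cycling cells and in 92.6%, 100% and 100% of those of WT1, WT2 and WT3. Top2a, the topoisomerase that untangles replicated DNA, had UMIs in 83.6% of GOF cycling cells and in 90.7%, 83.3% and 57.1% of the WT ones. Ube2c, a ubiquitin-conjugating enzyme of the anaphase-promoting complex, was found in 77.5% of GOF cycling cells and in 66.7%, 83.3% and 85.7% of WT ones. All 6 genes were present together in 119 GOF cells and in 24, 8 and 3 cells of WT1, WT2 and WT3, with mean sums of 68.8 UMIs of the 6 genes per cell in GOF and 53.2, 31.0 and 29.7 in WT. Just inside the threshold lay 51 GOF cells and 10, 2 and 0 WT cells with exactly 3 of the 6 genes, which averaged 6.22 UMIs of them in GOF and 4.60 and 4.50 in WT1 and WT2. Just outside lay 127 GOF cells and 17, 5 and 4 WT cells with 2 of the 6 genes, averaging 2.75 UMIs in GOF and 2.82, 2.20 and 2.25 in WT. Cells with 1 or 2 of the 6 genes, 793 in GOF and 226, 98 and 61 in WT, entered neither class.

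Levels of 10 epithelial markers are given as a description. All 10 were detected in the cycling cells of the GOF library. All 10 immune and all 8 fibroblast markers were detected there too, so detection in this sum does not test the epithelial label. The epithelial markers summed to 13173 CPM (here without TMM scaling, as for all marker sums) in GOF cycling cells. Their sums were 10731, 12097 and 10636 CPM in cycling cells of WT1, WT2 and WT3. The non-cycling cells had 13661 CPM in GOF and 11360 (WT1), 11350.3 (WT2) and 9105 (WT3) CPM in WT, above the cycling cells in GOF and WT1 and below them in WT2 and WT3. Epcam, which the rule required, stood at 1799 CPM in GOF cycling cells and at 1883, 1320 and 2301 CPM in WT ones. The cycling cells were also deeper than their neighbours. Their median was 23920 UMIs in GOF and 19245, 21920 and 24410 UMIs in WT, against 7878 UMIs in GOF and 7339, 3899 and 2842 UMIs in WT for non-cycling cells.

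Some cycling cells carried transcripts of other cell types. At least 10 UMIs of a fibroblast, immune, smooth muscle or endothelial marker list were found in 44 of 262 GOF cycling cells (16.8%) and in 2 of 54, 3 of 12 and 0 of 7 cells of WT1, WT2 and WT3. The shares among non-cycling cells were 7.64% in GOF and 2.51%, 4.80% and 2.21% in WT. Of the 44 GOF cells, 33 passed on fibroblast genes, 18 on smooth muscle genes, 11 on immune genes and 2 on endothelial genes. Their median Epcam count was 6.5 UMIs against 44.5 in the other 218. Median Krt19, Vim, Dcn and Wt1 counts were 51.5, 34, 48 and 3 UMIs, against 33.5, 0, 0 and 0 in the other 218. Whether these 44 cells belong to the duct lining was not tested. Mesothelial markers were not part of the condition, and Wt1, which is 1 of them, had UMIs in 36 of 262 GOF cycling cells. Summed fibroblast markers reached 1282 CPM in GOF cycling cells and 11, 1221 and 30.3 CPM in WT ones. They stood at 742 CPM in GOF and 128, 794 and 268 CPM in WT non-cycling cells, so GOF and WT2 were the libraries with more of them among cycling cells. Doublet scores put 51 of the 262 GOF cycling cells (19.5%) and 1 of 54, 1 of 12 and 0 of 7 WT cycling cells in the top-scoring share of barcodes, against 7.50% of GOF and 5.79%, 2.74% and 1.66% of WT non-cycling cells. These cells were kept, and values without the cells carrying other markers are given beside the main counts.

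Free RNA in the droplets was read from cells that should not divide. None of 246 GOF neutrophils had 3 of the 6 genes, which allows a share of up to 1.49% at a median depth of 1601.5 UMIs, against a median of 8534.5 UMIs in GOF duct epithelium. None of 400 WT1 neutrophils did either, at a median of 1156 UMIs. At least 1 of the 6 genes was found in 18 of 246 GOF neutrophils (7.32%, 4.39% to 11.3%) and in 3 of 400 WT1 neutrophils (0.75%, 0.155% to 2.18%), and Mki67 in 10 and 1 of them, a larger share in GOF than in WT1. In WT2 and WT3, 0 of 20 and 3 of 17 neutrophils had at least 1 of the genes and 0 and 2 had at least 3, too few cells to set a level. At a depth closer to the epithelium, 30 of 655 GOF fibroblasts (4.58%, median 9731 UMIs) met the 3-gene condition, and 0 of 173, 11 of 256 and 0 of 179 WT fibroblasts did. Fibroblasts can divide, so these are levels in another cell type and not a background. Intervals and upper limits given here cover counting error alone.

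A larger share of the duct epithelium was in cycle in the GOF library than in any WT library. Cycling cells made up 5.09% of GOF duct epithelial cells (262 of 5150, exact Clopper-Pearson 95% interval 4.50% to 5.72%). They made up 1.73% (54 of 3113, 1.31% to 2.26%), 0.843% (12 of 1423, 0.436% to 1.47%) and 0.721% (7 of 971, 0.290% to 1.48%) in WT1, WT2 and WT3, a mean of 1.10% ± 0.553 (SD, n = 3). The GOF interval did not overlap any WT interval, and the GOF share was 4.63 times the WT mean. With 1 library against 3, an exact permutation test cannot give a p below 0.25, so no test of the share was run. Because the rule needs UMIs of several genes, deeper cells pass it more readily, and each cell was therefore thinned to 2000 UMIs. The thinned shares were 2.05% in GOF (97 of 4739, 1.66% to 2.49%) and 0.602% (18 of 2992, 0.357% to 0.949%) in WT1. They were 0.153% (2 of 1306, 0.0186% to 0.552%) in WT2 and 0.401% (3 of 748, 0.0828% to 1.17%) in WT3. The ratio of the GOF share to the WT mean was 5.31 after thinning, and 4.38 in the same cells of at least 2000 UMIs without thinning. Thinning left out 411 GOF and 121, 117 and 223 WT epithelial cells below 2000 UMIs, among them 9 GOF cycling cells and no WT ones. The ratio was 4.03 without the cells scored as doublets and 4.45 without cells carrying markers of other types. Leaving out WT1, the library with the highest WT share, gave 6.50.

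**Figure D1:**
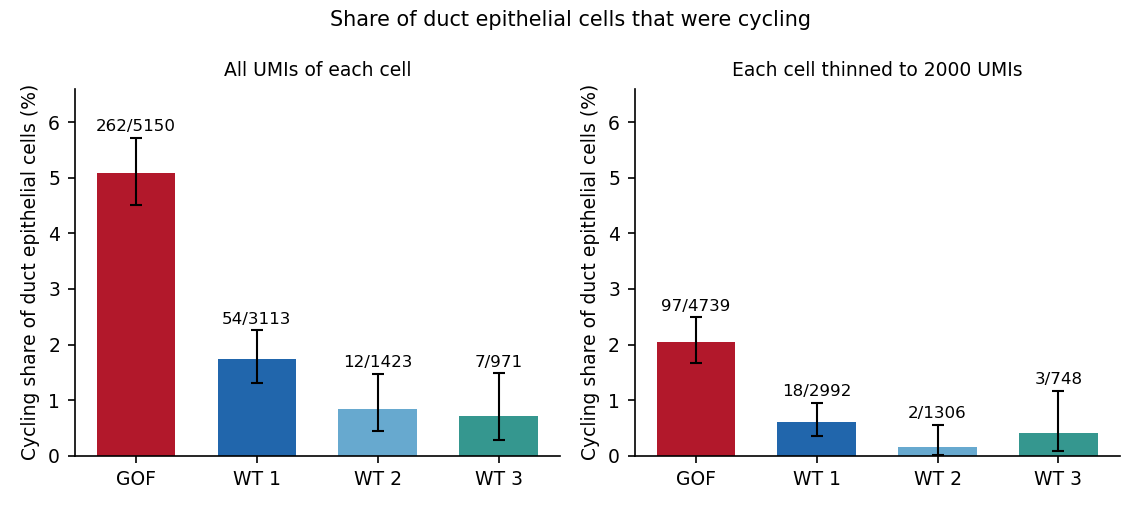
Share of duct epithelial cells (percent) that were cycling in the GOF, WT1, WT2 and WT3 libraries, with all UMIs (left) and with each cell thinned to 2000 UMIs (right); bars are shares, error bars exact 95% Clopper-Pearson intervals, and labels the cycling cells of all epithelial cells. The GOF bar stands at 5.09% against 0.721% to 1.73% in WT with all UMIs, and at 2.05% against 0.153% to 0.602% after thinning.

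The GOF share was also read in its Xist and Y-linked cells. Cycling cells made up 5.78% of the GOF epithelial cells with Xist alone (121 of 2094, 4.82% to 6.87%) and 5.45% of those with Y-linked UMIs alone (96 of 1761, 4.44% to 6.62%). The 2 intervals overlapped, and each lay above the 3 WT shares, which were taken over all epithelial cells. The GOF cells read here were deeper, with medians of 9122 (Xist) and 9966 (Y-linked) UMIs against 8534.5 in all GOF duct epithelium. Among WT cells with Y-linked UMIs alone, 34, 9 and 4 were cycling in WT1, WT2 and WT3, beside 1460, 469 and 298 non-cycling ones.

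Transcripts of the division machinery were higher in cycling cells. Sums of UMIs per library and class were compared with edgeR, with the library as a block. Of 13510 genes tested, 718 were higher and 293 lower in cycling cells at an adjusted p under 0.05, which is 7.48% of genes called, 5.31% of them higher and 2.17% lower. DESeq2 called 458 higher and 87 lower, so the split between higher and lower calls depends on the method, and edgeR without the GOF library called 581 genes in all, and 1039 without cells carrying markers of other types. The cells were split on UMIs of 6 division genes in these same cells, so these counts and folds describe the split and carry no weight as evidence. In the G2 and M phase list 49 of 49 tested genes were higher, with a median log2 fold change of 5.75. In the S phase list 50 of 50 were higher, with a median of 2.21, against a median of -0.06 over all genes tested. Of these genes, 47 of the G2 and M list and 40 of the S phase list were higher in each of the 4 libraries. Neither list holds any of the 6 genes of the rule.

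The mitotic genes were close to absent in non-cycling cells. Pbk, a mitotic kinase, had 50.6, 115, 92.9 and 67.9 CPM in cycling cells of GOF, WT1, WT2 and WT3, against 0.13, 0.174, 0.521 and 0 CPM in their non-cycling cells. Every cycling sum lay far above every non-cycling sum, with a log2 fold change of 8.64 ± 0.28 (SE; brackets after the levels of later genes give the same quantity). Ccna2, cyclin A, had 43.8, 84.5, 48 and 51 CPM in cycling cells of GOF, WT1, WT2 and WT3, against 0.298, 0.139, 0.312 and 0.206 CPM in their non-cycling cells (7.78 ± 0.31). Tpx2, which activates Aurora A on the spindle, had 76.6, 85.2, 80.9 and 8.49 CPM in cycling cells of GOF, WT1, WT2 and WT3, against 0.429, 0.208, 0.208 and 0.206 CPM in their non-cycling cells. WT3 stood apart there, since its 7 cycling cells gave a single Tpx2 UMI. Cdca3, a trigger of mitotic entry, had 80, 105, 53.9 and 119 CPM in cycling cells of GOF, WT1, WT2 and WT3, against 0.596, 0.521, 0.521 and 0.206 CPM in their non-cycling cells (7.31 ± 0.24). Aurkb, Aurka and Plk1, the Aurora and Polo kinases, had log2 fold changes of 7.19, 6.24 and 5.73, and Ccnb1, cyclin B, had 6.58. The smallest differences of the list belonged to genes that non-cycling cells also express, with 0.74 for the checkpoint protein gene Bub3 and 0.85 for the tubulin gene Tubb4b.

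The replication genes had higher levels in non-cycling cells and smaller differences. Rrm2, a subunit of ribonucleotide reductase, had 52.7, 123, 105 and 34 CPM in cycling cells of GOF, WT1, WT2 and WT3, against 0.857, 1.46, 1.67 and 1.03 CPM in their non-cycling cells (6.06 ± 0.22). Tyms, thymidylate synthase, had 119, 170.5, 159 and 76.4 CPM in cycling cells of GOF, WT1, WT2 and WT3, against 20.7, 30.4, 27.5 and 29.6 CPM in their non-cycling cells (2.41 ± 0.15). Both genes were higher in the cycling cells of every library, with non-cycling levels near 0 for Rrm2 and well above 0 for Tyms. Pcna, the sliding clamp, had 118, 63.6, 83.9 and 76.4 CPM in cycling cells of GOF, WT1, WT2 and WT3, against 44.7, 18.3, 30.5 and 33.5 CPM in their non-cycling cells (1.51 ± 0.15). The genes of the MCM helicase, Mcm2 to Mcm7, had log2 fold changes between 1.45 and 2.91. Mcm6 had 57.5, 44.1, 74.9 and 34 CPM in cycling cells of GOF, WT1, WT2 and WT3, against 20.7, 5.28, 12 and 15.2 CPM in their non-cycling cells (2.12 ± 0.21), and its non-cycling level was highest in GOF. Rfc3, a subunit of the clamp loader, had 39.2, 43.4, 71.9 and 84.9 CPM in cycling cells of GOF, WT1, WT2 and WT3, against 18.9, 20.3, 30.7 and 32.1 CPM in their non-cycling cells (1.13 ± 0.16).

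The promoters of 4 of these genes are shown because they carry the letters known from each class of cell cycle gene. Each runs from 250 bases before to 50 bases after the start, 5′ to 3′ on the gene's strand, taken from RefSeq for GRCm38.p6. For Ccnb2 (chr9:70421505-70421804, minus strand) and Cdca3 (chr6:124829926-124830225, plus strand), capitals mark CCAAT, the letters bound by NF-Y, and the cell cycle homology region (CHR, TTTGAA or TTTAAA), the element bound by MuvB. For Rfc3 (chr5:151651159-151651458, minus strand) and Mcm6 (chr1:128359656-128359955, minus strand), capitals mark the E2F letters TTTCCCGC, TTTCGCGC, TTTGCCGC or TTTGGCGC. All letters were searched on both strands, so a match can read as its reverse complement.
Ccnb2: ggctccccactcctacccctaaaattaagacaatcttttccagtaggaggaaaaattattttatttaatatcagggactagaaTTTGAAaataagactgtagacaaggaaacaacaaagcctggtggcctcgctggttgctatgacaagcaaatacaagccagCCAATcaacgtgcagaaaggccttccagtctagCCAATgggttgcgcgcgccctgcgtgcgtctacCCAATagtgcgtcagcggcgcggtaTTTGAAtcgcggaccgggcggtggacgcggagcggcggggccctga
Cdca3: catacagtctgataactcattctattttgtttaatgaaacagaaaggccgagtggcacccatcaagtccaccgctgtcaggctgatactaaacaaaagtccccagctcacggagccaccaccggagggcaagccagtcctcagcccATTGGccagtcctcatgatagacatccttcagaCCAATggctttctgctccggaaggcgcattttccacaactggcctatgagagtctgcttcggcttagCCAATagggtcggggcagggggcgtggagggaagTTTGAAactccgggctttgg
Rfc3: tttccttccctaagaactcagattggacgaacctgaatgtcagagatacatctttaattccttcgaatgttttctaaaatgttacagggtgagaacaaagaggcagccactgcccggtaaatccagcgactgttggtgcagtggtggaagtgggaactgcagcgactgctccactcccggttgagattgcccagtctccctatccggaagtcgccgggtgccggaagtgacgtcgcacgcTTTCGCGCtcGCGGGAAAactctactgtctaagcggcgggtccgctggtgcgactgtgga
Mcm6: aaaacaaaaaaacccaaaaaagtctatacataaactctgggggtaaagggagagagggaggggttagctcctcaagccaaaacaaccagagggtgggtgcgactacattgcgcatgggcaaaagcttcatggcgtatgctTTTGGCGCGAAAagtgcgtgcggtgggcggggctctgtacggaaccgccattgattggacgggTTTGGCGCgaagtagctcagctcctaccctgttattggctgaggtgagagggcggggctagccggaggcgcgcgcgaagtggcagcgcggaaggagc
The Ccnb2 window held 2 CHR and 3 CCAAT matches, that of Cdca3 1 CHR and 3 CCAAT matches, that of Rfc3 2 E2F matches and that of Mcm6 3 E2F matches, of which 2 overlap on opposite strands.

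The letters sorted the lists as follows, where a gene with several starts counted once, if any of its windows held the letters. CHR was in 30 of the 38 G2 and M phase promoters that could be matched (78.9%), in 9 of 40 S phase promoters (22.5%) and in 30.6% of all 27025 promoters. CCAAT was in 30 of 38 (78.9%), 24 of 40 (60%) and 41.1%. The E2F letters were in 0 of 38 G2 and M phase promoters, 16 of 40 S phase promoters (40%) and 2.60% of all promoters. A match describes the letters in this window and is neither a bound site nor a cause.

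**Figure D2:**
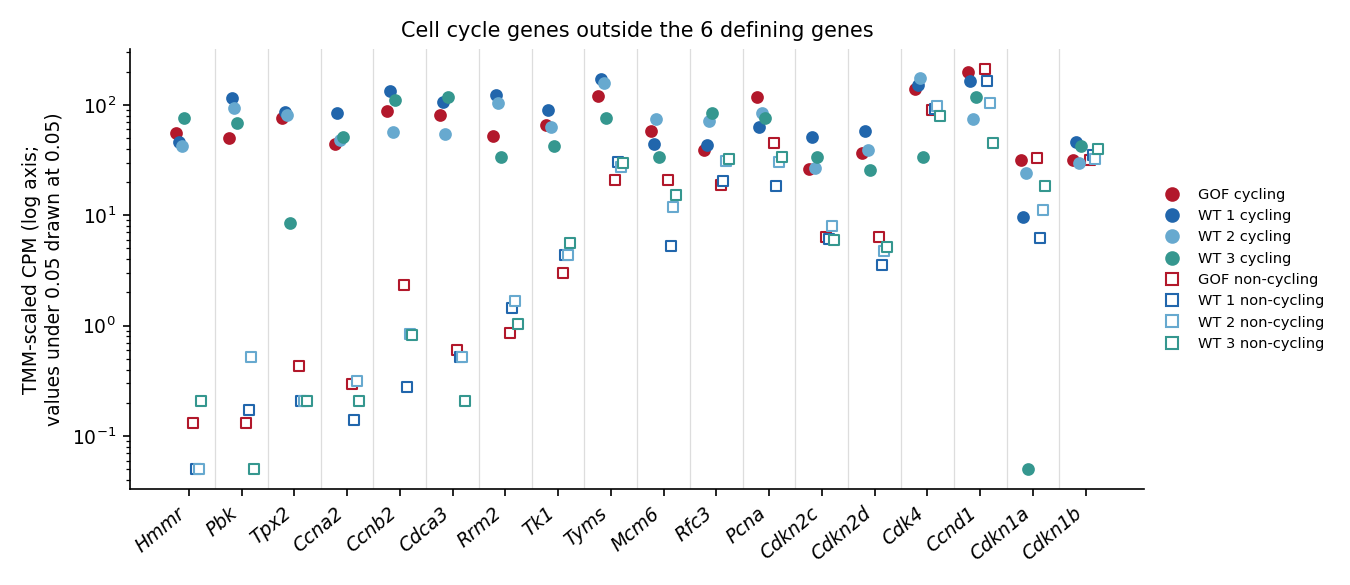
Levels (TMM-scaled CPM, log axis) of 18 cell cycle genes in cycling cells (filled symbols) and non-cycling cells (open squares) of the GOF, WT1, WT2 and WT3 libraries, with values under 0.05 drawn at 0.05. The classes lie far apart for mitotic genes such as Pbk and Ccna2, closer for Pcna and Rfc3, and overlap for Ccnd1, Cdkn1a and Cdkn1b.

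Regulators of the cycle divided into those that were higher in cycling cells and those that did not pass the threshold. In the list of cyclins, kinases and inhibitors, 13 of 24 tested genes were higher and 0 lower (median log2 fold change 0.81). E2f8 and E2f7, repressors of the E2F family that act late in S phase, had log2 fold changes of 8.15 ± 0.57 and 6.91 ± 0.60. Foxm1 had 11.7, 20.9, 24 and 17 CPM in cycling cells of GOF, WT1, WT2 and WT3, against 1.19, 0.278, 0.312 and 1.03 CPM in their non-cycling cells (4.54 ± 0.43). Ccne1 and Ccne2, the cyclin E genes, had differences of 4.63 and 2.81, on levels of at most 17.0 CPM. Inhibitors of cyclin D kinases were also higher, among them Cdkn2d with 36.7, 58.3, 39 and 25.5 CPM in cycling cells of GOF, WT1, WT2 and WT3, against 6.35, 3.51, 4.79 and 5.15 CPM in their non-cycling cells (3.09 ± 0.24), and Cdkn2c with a log2 fold change of 2.39 ± 0.23. Every library had both inhibitors higher in cycling cells.

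The D cyclins, which couple growth signals to the cycle, did not pass the threshold between the classes. Ccnd1 had 199, 164, 74.9 and 119 CPM in cycling cells of GOF, WT1, WT2 and WT3, against 209.9, 166, 104 and 45.3 CPM in their non-cycling cells (0.01 ± 0.16, adjusted p = 0.996 by edgeR). Ccnd2 had 251, 100.2, 83.9 and 136 CPM in cycling cells of GOF, WT1, WT2 and WT3, against 373, 102, 102 and 73.5 CPM in their non-cycling cells (-0.18 ± 0.16). The values of the classes overlapped for both genes, but Ccnd2 passed as lower in cycling cells in 2 of 15 alternative settings, with a log2 fold change of -0.68 against non-cycling cells of matched depth and -1.69 after thinning. Cdkn1a (p21), the p53-induced inhibitor, had 31.4, 9.72, 24 and 0 CPM in cycling cells of GOF, WT1, WT2 and WT3, against 33.1, 6.21, 11.2 and 18.3 CPM in their non-cycling cells (0.14 ± 0.24), and Cdkn1b (p27) had 31.4, 46.4, 30 and 42.5 CPM in cycling cells of GOF, WT1, WT2 and WT3, against 31.4, 34.9, 32.2 and 39.5 CPM in their non-cycling cells (0.13 ± 0.17). Of 19 tested p53 target genes, 1 was higher, Gtse1, itself a mitotic gene, which is near the 5.31% of all genes called higher. Myc had 10.9, 9.72, 0 and 8.49 CPM in cycling cells of GOF, WT1, WT2 and WT3, against 11.3, 9.16, 8.23 and 7.2 CPM in their non-cycling cells (-0.12 ± 0.29).

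Chromatin and spindle genes followed the division genes. Of the chromatin, histone and tubulin list, 18 of 20 genes were higher in cycling cells (median 1.09), and of the spindle checkpoint and DNA repair list 14 of 19 (median 2.06). Stmn1, which destabilises microtubules, had 522, 594, 393 and 212 CPM in cycling cells of GOF, WT1, WT2 and WT3, against 40.5, 23.2, 22.7 and 10.3 CPM in their non-cycling cells (4.18 ± 0.17). H2afz, the histone variant H2A.Z, had 1168, 1882, 1397 and 1818 CPM in cycling cells of GOF, WT1, WT2 and WT3, against 289, 526, 530.2 and 465 CPM in their non-cycling cells (1.81 ± 0.17). Esco2, which holds sister chromatids together, had 48.9, 50.8, 39 and 17 CPM in cycling cells of GOF, WT1, WT2 and WT3, against 0.242, 0.0694, 0 and 0 CPM in their non-cycling cells, and Brca1, of homologous repair, had a log2 fold change of 4.42 ± 0.37. Outside these lists the 10 largest differences that were alike in direction in all libraries were Cdkn3, Mxd3, Hist1h1b, Iqgap3, Melk, Aspm, Anln, Ncapg, Hist1h2ap and Sgo1, with log2 fold changes from 6.14 (Sgo1) to 8.02 (Cdkn3). Hist1h1b, a linker histone gene, had 129.5, 62.8, 171 and 59.5 CPM in cycling cells of GOF, WT1, WT2 and WT3, against 0.671, 0, 1.25 and 0.206 CPM in their non-cycling cells. Of all 718 genes higher in cycling cells, 144 belonged to the cell cycle lists, and 436 were higher in all 4 libraries.

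Most cycling cells carried more G2 and M than S phase transcripts. The summed S phase list had 20.9 UMIs per 10000 in GOF cycling cells and 21.1, 21.5 and 11.4 in WT1, WT2 and WT3, and the summed G2 and M list 41.2 in GOF and 42.0, 30.6 and 27.7 in WT. In non-cycling cells the S sums were 5.78 in GOF and 4.26, 4.75 and 4.27 in WT, and the G2 and M sums 7.67 in GOF and 5.61, 4.33 and 3.88 in WT. Among the cycling cells GOF and WT1 were close on both sums, and WT3 was lowest on both. The G2 and M sum exceeded the S sum in 192 of 262 GOF cells (73.3%), 41 of 54 WT1 cells (75.9%), 8 of 12 WT2 cells (66.7%) and 7 of 7 WT3 cells. The median share of S transcripts within the 2 lists was 32.7% in GOF cycling cells and 33.8%, 40.6% and 33.3% in WT ones, and single GOF cells ranged from 0 to 79.7%. All 6 rule genes are most abundant in S, G2 and M phase, so cells in G1 phase are not covered, and the lists differ in abundance, so these values are not phase calls.

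**Figure D3:**
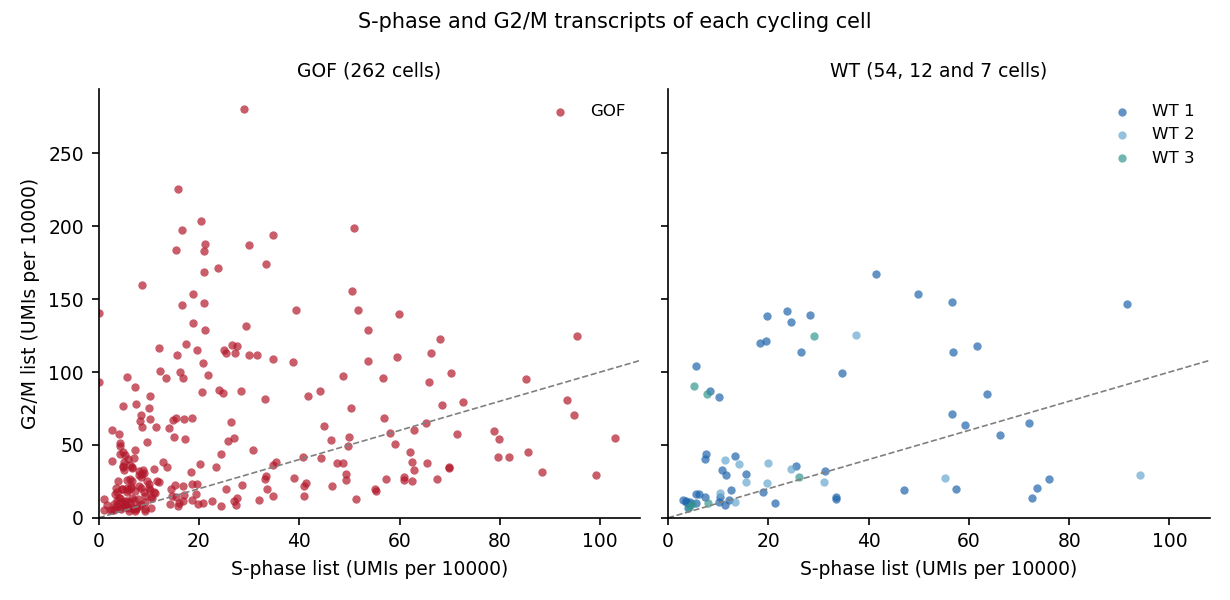
UMIs of the S phase list (x axis) against UMIs of the G2 and M phase list (y axis), each per 10000 UMIs of the cell, for every cycling cell of the GOF library (left) and of the 3 WT libraries (right); the dashed line marks equal sums. In GOF 192 of 262 cells lie above the line, and in WT1, WT2 and WT3 41 of 54, 8 of 12 and 7 of 7 do.

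Few genes of duct identity or transport separated the classes. Of 24 biliary identity genes tested, 0 were called in either direction by edgeR (median log2 fold change -0.19; 8 had an unadjusted p under 0.05). The keratin gene Krt8 had 2283, 3334, 1900.1 and 1971 CPM in cycling cells of GOF, WT1, WT2 and WT3, against 2695, 3772, 2088 and 1490.5 CPM in their non-cycling cells (-0.05 ± 0.19). Sox9, the duct transcription factor, had 173, 182, 183 and 306 CPM in cycling cells of GOF, WT1, WT2 and WT3, against 198, 189, 249 and 324 CPM in their non-cycling cells (-0.19 ± 0.14). Spp1, osteopontin, had 4383, 2238, 3129 and 3168 CPM in cycling cells of GOF, WT1, WT2 and WT3, against 3575, 1984, 2870.0 and 1703 CPM in their non-cycling cells (0.37 ± 0.19). Its values were higher in the cycling cells of all 4 libraries, without passing the threshold. Of 16 transport genes, 3 were lower: Abcc3, a bile salt and conjugate exporter (-0.49), the water channel gene Aqp5 (-0.52) and Slc2a2, the glucose transporter GLUT2 (-0.62). Nuclear genes of oxidative phosphorylation gave 0 calls among 22 (median 0.15; 2 with an unadjusted p under 0.05; DESeq2 also 0).

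Genes for making ribosomes were slightly higher in part. Nop56, of the box C/D snoRNP, had 80.4, 47.9, 45 and 76.4 CPM in cycling cells of GOF, WT1, WT2 and WT3, against 48.7, 31.6, 28.7 and 29.8 CPM in their non-cycling cells (0.72 ± 0.16), and Nhp2, of the box H/ACA snoRNP, had 124, 113, 129 and 144 CPM in cycling cells of GOF, WT1, WT2 and WT3, against 61.1, 88.6, 90.2 and 75.5 CPM in their non-cycling cells (0.70 ± 0.14). Both were higher in every library, and 5 of 20 genes of the list were called (median 0.23), but 0 after thinning and 2 without the GOF library. Of 17 glycolysis genes, Pgk1, Gapdh and Pkm were called higher (median of the list 0.10), and 0 without the GOF library.

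Part of the defence and stress genes were lower in cycling cells. Of 19 genes of the inflamed epithelium list, 9 were called lower and 1 higher (median -0.55). Pigr, the receptor that carries IgA into bile, had 365, 643, 255 and 756 CPM in cycling cells of GOF, WT1, WT2 and WT3, against 575, 1568, 1334 and 978 CPM in their non-cycling cells (-1.15 ± 0.20). Nos2, inducible nitric oxide synthase, had 3, 18.7, 8.99 and 0 CPM in cycling cells of GOF, WT1, WT2 and WT3, against 4.71, 75.8, 47.6 and 0.206 CPM in their non-cycling cells (-1.52 ± 0.25), and Cxcl5, a neutrophil chemokine, had 145, 2156, 177 and 25.5 CPM in cycling cells of GOF, WT1, WT2 and WT3, against 191, 2911, 1291 and 72 CPM in their non-cycling cells (-1.11 ± 0.25). Pigr was lower in the cycling cells of all 4 libraries. The Nos2 and Cxcl5 values were too, but in WT3 Nos2 held 0 UMIs in cycling and 1 UMI in non-cycling cells, which sets no direction. Cxcl5 held 3 UMIs in WT3 cycling cells. Reg3g, an antibacterial lectin, had 429.6, 91.2, 18 and 8.49 CPM in cycling cells of GOF, WT1, WT2 and WT3, against 416, 283, 177 and 20 CPM in their non-cycling cells (-1.08 ± 0.23). Its values were lower in the cycling cells of the 3 WT libraries and not in those of GOF, but WT2 and WT3 held only 6 and 1 Reg3g UMIs there. Saa3, the gene called higher, had 922, 0.748, 566 and 17 CPM in cycling cells of GOF, WT1, WT2 and WT3, against 554, 1.53, 195 and 51.9 CPM in their non-cycling cells (0.85 ± 0.22), and its log2 fold change was -0.93 once cells carrying markers of other types were left out. DESeq2 called 2 genes of this list lower, edgeR without WT2 called 6 lower and 0 higher, and the fit without the library block called 0.

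Of 21 immediate early and stress genes, 7 were called lower and 0 higher (median -0.46). Junb had 1063, 235, 599 and 153 CPM in cycling cells of GOF, WT1, WT2 and WT3, against 1636, 362, 727 and 973 CPM in their non-cycling cells (-0.85 ± 0.20), lower in each library. Fos had 2239.5, 376, 536 and 408 CPM in cycling cells of GOF, WT1, WT2 and WT3, against 3042, 352, 667 and 1251 CPM in their non-cycling cells (-0.50 ± 0.19), which did not pass the threshold. DESeq2 called 1 of these genes, the fit without the block 0, edgeR without GOF 3, and the comparison with non-cycling cells of matched depth 12 of 20. F3, tissue factor, was the 1 called gene of 16 YAP targets, with 76.6, 129, 50.9 and 42.5 CPM in cycling cells of GOF, WT1, WT2 and WT3, against 126, 174, 93.3 and 97.1 CPM in their non-cycling cells (-0.67 ± 0.15). Over all genes tested 7.48% were called, so 1 of 16 is near that share and says nothing about YAP targets as a set.

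Some genes of tuft, acinar and endocrine cells were lower in the cycling sums. Of 12 tuft cell genes 3 were called lower (median -0.35), among them Rgs13 with 16.7, 19.4, 3 and 0 CPM in cycling cells of GOF, WT1, WT2 and WT3, against 31.6, 65.9, 38.2 and 46.3 CPM in their non-cycling cells (-1.39 ± 0.21), and Gnat3, gustducin, which had UMIs in the cycling cells of GOF alone. All 8 pancreatic acinar markers were called lower. Their sums were 0.543 CPM in GOF cycling cells and 41.1, 22.4 and 197 CPM in WT ones, against 1.85 CPM in GOF and 150, 286 and 4750 CPM in WT non-cycling cells. At matched depth only 4 acinar markers could be tested and 0 were called, with a median of -0.09. The largest falls by the naming rule were such genes, led by Iapp, an islet hormone, with 0.479, 0.748, 0 and 0 CPM in cycling cells of GOF, WT1, WT2 and WT3, against 22.1, 111, 0.833 and 1.65 CPM in their non-cycling cells (-6.04 ± 0.37). Most of that difference lay in WT1 and GOF.

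**Figure D4:**
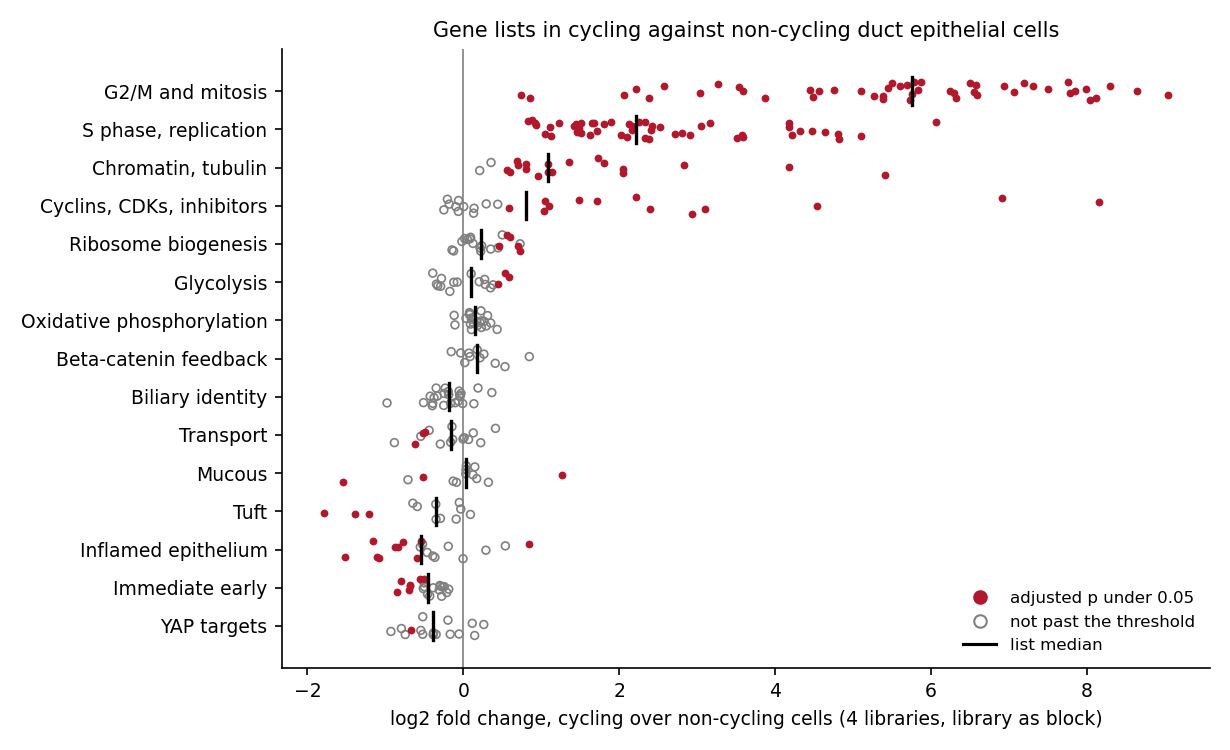
Log2 fold change of cycling over non-cycling cells (x axis) for each tested gene of the gene lists (rows); red points passed an adjusted p of 0.05 in edgeR, open points did not, and bars are list medians. The G2 and M list (median 5.75) and the S phase list (median 2.21) lie to the right, while the inflamed epithelium (-0.55) and immediate early (-0.46) lists lie to the left of 0.

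Axin2 and Rnf43 had their highest values in GOF, in cycling and in non-cycling cells. Axin2 had 88.7, 4.49, 5.99 and 0 CPM in cycling cells of GOF, WT1, WT2 and WT3, against 91.3, 3.12, 8.33 and 7 CPM in their non-cycling cells (-0.03 ± 0.21). Rnf43, a ligase that removes Wnt receptors, had 112, 21.7, 36 and 51 CPM in cycling cells of GOF, WT1, WT2 and WT3, against 110.0, 22.2, 34.7 and 47.7 CPM in their non-cycling cells (0.02 ± 0.16). For both genes the GOF sums stood above all WT sums in each class. Lgr5, an R-spondin receptor, had 28.9, 1.5, 0 and 0 CPM in cycling cells of GOF, WT1, WT2 and WT3, against 15.9, 0.625, 0.937 and 0.617 CPM in their non-cycling cells (0.85 ± 0.32, adjusted p = 0.117). In all, 0 of 11 genes of the list were called between cycling and non-cycling cells by edgeR (median 0.18; 1 with an unadjusted p under 0.05; DESeq2 0). Lgr5 passed in 4 of 13 alternative settings, with log2 fold changes of 0.55 to 1.08 over all 13.

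Znrf3 and Rnf43, Wnt feedback genes with at least 18.8 CPM in the cycling cells of each WT library, were higher in those of GOF. Znrf3 passed the threshold in each of 11 alternative settings, and Rnf43 in 7 of 11. Across 9829 genes tested, 436 were higher and 77 lower in GOF cycling cells, 5.22% of genes called, 4.44% higher and 0.783% lower. DESeq2 called 106 higher and 65 lower, and edgeR without TMM factors 555 higher and 57 lower, with the median of all genes shifted to 0.23. Without WT2 or WT3, the libraries with 12 and 7 cycling cells, 829 and 1110 genes were called, and 753 without cells carrying markers of other types. With 1 library in the GOF group, a gene could pass the filter on low counts through GOF alone, and such a gene had to come out higher, so the counts of higher genes here and in the lists that follow are descriptions only. Of 12 Wnt feedback genes 9 passed the filter, and 5 of those (Nkd1, Notum, Sp5, Lgr5 and Tnfrsf19) held at most 2 UMIs in all WT cycling cells together. Tcf7, Lef1 and Apcdd1 did not pass it. Axin2 held 6, 2 and 0 UMIs in cycling cells of WT1, WT2 and WT3 and also passed the filter through GOF, so its values too are a description. Its level was 89.3 CPM in GOF and 4.52, 6.27 and 0 CPM in WT1, WT2 and WT3. The log2 difference was 4.29 ± 0.55 (SE, as in later brackets, where adjusted p is by edgeR). Axin2 UMIs were found in 156 of 262 GOF cycling cells (59.5%, 53.3% to 65.5%) and in 4 of 54, 2 of 12 and 0 of 7 cells of WT1, WT2 and WT3. Znrf3, a ligase that acts with Rnf43, had 174 CPM in GOF and 24.9, 18.8 and 26.7 CPM in WT1, WT2 and WT3 (2.90 ± 0.41; adjusted p = 0.00114). For both genes the GOF value lay above all 3 WT values.

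Several of these genes were near 0 in WT cycling cells. Nkd1 had 89.9 CPM in GOF and no UMI in the 3 WT sums, at least 61.0-fold higher in GOF against a floor of 3 UMIs over the WT libraries together. It had UMIs in 154 of 262 GOF cycling cells (58.8%) and in 0 of 54, 0 of 12 and 0 of 7 WT ones. Notum, a secreted enzyme that inactivates Wnt ligands, had 24.3 CPM in GOF and no WT UMI, at least 16.4-fold higher in GOF. Lgr5 had 29.1 CPM in GOF and 1.51, 0 and 0 CPM in WT1, WT2 and WT3, a ratio of pooled counts of 29.6 (counting interval 8.10 to 246), with UMIs in 88 GOF cycling cells (33.6%) and in 2, 0 and 0 WT ones. The receptor gene Tnfrsf19 (ratio 90.0, 24.8 to 744) and the transcription factor gene Sp5 (ratio 101, 18.1 to 4013) likewise rested on 1 or 2 WT UMIs. Rnf43 was higher by 1.83 ± 0.46 (adjusted p = 0.0358). Ascl2, the remaining tested gene, had 17.7 CPM in GOF and 2.26, 6.27 and 17.8 CPM in WT1, WT2 and WT3 (adjusted p = 0.364). Of the 9 tested genes edgeR called all but Ascl2, DESeq2 called 4, and edgeR without WT1 called 5.

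Genes of the S, G2 and M phase lists were not called between the cycling cells of GOF and WT. The cells of both groups were chosen by the same condition on UMIs of division genes. The lack of calls therefore cannot show whether the division program differed between GOF and WT. Of 47 G2 and M genes, 0 passed by edgeR (median log2 difference -0.03; 1 with an unadjusted p under 0.05; DESeq2 0), and of 49 S phase genes also 0 (median -0.03; 0 with an unadjusted p under 0.05; DESeq2 0). In the spindle checkpoint and repair list 1 of 18 genes was called, near the 5.22% called over all genes. It was the cohesin subunit gene Stag1, with 156 CPM in GOF and 46.7, 53.3 and 26.7 CPM in WT1, WT2 and WT3 (1.79 ± 0.42, edgeR adjusted p = 0.0232). Ccnd1, often described as a beta-catenin target, had 200.2 CPM in GOF and 165, 78.3 and 125 CPM in WT1, WT2 and WT3 (0.68 ± 0.46; adjusted p = 0.562). Ccnd2 had 252 CPM in GOF and 101, 87.7 and 142 CPM in WT1, WT2 and WT3 (1.24 ± 0.42; adjusted p = 0.124). GOF was the highest library for both genes, by less than the test could separate from the spread. Prom1, named in the genotype label, had 181 CPM in GOF and 241, 163 and 213 CPM in WT1, WT2 and WT3 (-0.19 ± 0.44; adjusted p = 0.929).

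Most immediate early genes were higher in GOF cycling cells, with 12 of 20 called and a median log2 difference of 1.94. Atf3, a stress-induced transcription factor, had 1718 CPM in GOF and 15.1, 6.27 and 0 CPM in WT1, WT2 and WT3 (7.31 ± 0.57; adjusted p = 3.41e-05). Dusp1, a MAP kinase phosphatase, had 701 CPM in GOF and 34.7, 40.7 and 44.5 CPM in WT1, WT2 and WT3 (4.18 ± 0.41; adjusted p = 0.000188). Fos had 2256 CPM in GOF and 379, 561 and 427 CPM in WT1, WT2 and WT3 (2.31 ± 0.40; adjusted p = 0.00409). The GOF value exceeded all WT values for these 3 genes. Non-cycling cells had 3042 CPM of Fos in GOF and 352, 667 and 1251 CPM in WT. They held 123582 Atf3 UMIs in GOF and 250, 159 and 107 in WT1, WT2 and WT3. For Dusp1 they held 51000 UMIs in GOF and 1157, 696 and 448 in WT. All UMIs of these cells numbered 46947725 in GOF and 30056613, 9941681 and 5508867 in WT. GOF was thus the highest library for these 3 genes in both classes. Cyr61, a YAP and serum response target, had 178 CPM in GOF and 14.3, 6.27 and 8.89 CPM in WT1, WT2 and WT3 (3.93 ± 0.46; adjusted p = 0.000309). It was the 1 called gene of 11 tested YAP targets. Over all genes 5.22% were called, so 1 of 11 says nothing about YAP targets as a set.

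Some interferon and antimicrobial genes were also higher in GOF cycling cells. Of 14 tested interferon genes 5 were called higher (median 1.92), namely Isg15, Bst2, Gbp2, Rtp4 and Irf7. Bst2, tetherin, had 283 CPM in GOF and 21.1, 50.1 and 8.89 CPM in WT1, WT2 and WT3 (3.32 ± 0.51; adjusted p = 0.0019). Reg3b, an antibacterial lectin, had 396 CPM in GOF and 7.53, 21.9 and 8.89 CPM in WT1, WT2 and WT3 (5.08 ± 0.52; adjusted p = 0.00022), and Reg3g had 433 CPM in GOF and 91.9, 18.8 and 8.89 CPM in WT1, WT2 and WT3 (3.09 ± 0.63; adjusted p = 0.0104). Both lectins were higher in GOF than in each WT library. In the inflamed epithelium list as a whole 3 of 19 genes were higher and 1 lower (median -0.08). Icam1 was the remaining higher gene (2.79), and Il1rn, the interleukin-1 receptor antagonist, was the lower one, with 14.6 CPM in GOF and 154, 28.2 and 71.1 CPM in WT1, WT2 and WT3 (-2.66 ± 0.72; adjusted p = 0.0494). Markers of mesothelium (3 of 5) and smooth muscle (2 of 4) were called higher in the same comparison. Summed mesothelial markers were 299.95 CPM in GOF cycling cells and 15.4, 102 and 0 CPM in WT ones, and their part in the other differences was not tested.

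**Figure D5:**
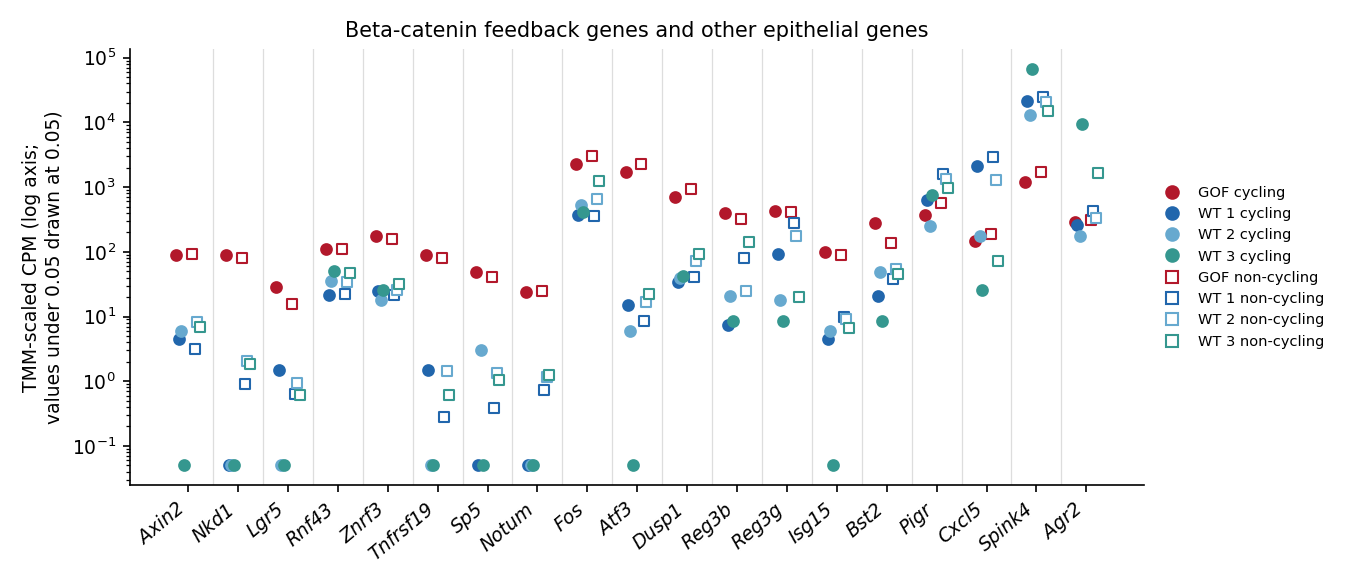
Levels (TMM-scaled CPM, log axis) of Wnt feedback genes and of genes of other lists in cycling cells (filled symbols) and non-cycling cells (open squares) of the GOF, WT1, WT2 and WT3 libraries, with values under 0.05 drawn at 0.05. Axin2 in cycling cells stands at 88.7 CPM in GOF and at 0 to 5.99 CPM in WT, close to the non-cycling cells of the same library, while Pigr and Cxcl5 lie lower in cycling than in non-cycling cells of each library.

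Fewer genes were called lower than higher in GOF cycling cells, but the filter admitted some genes through GOF alone, so this split is a description. Spink4, a goblet and mucous cell peptide, had 1194 CPM in GOF and 21669, 13588 and 69945 CPM in WT1, WT2 and WT3 (-4.88 ± 0.99; adjusted p = 0.0104). Clca1, a secreted mucous cell protein, had 0 CPM in GOF and 28.6, 0 and 17.8 CPM in WT1, WT2 and WT3, so 1 WT library was also at 0. These were the 2 called of 13 mucous genes (median -3.55), and without WT3 4 were lower and 4 higher of 12, with a median of 0.41. Car4, a membrane carbonic anhydrase, had 5.43 CPM in GOF and 42.9, 109.7 and 0 CPM in WT1, WT2 and WT3 (-3.38 ± 0.86; adjusted p = 0.037), again with WT3 at 0. The largest falls by the naming rule were Ptp4a1, Ctrb1, Gstp1, Hist1h2ap and Amd2. Gstp1, a glutathione S-transferase, had 33.7 CPM in GOF and 595, 909 and 3175 CPM in WT1, WT2 and WT3. Gstp1, Hist1h2ap, Amd2 and Ptp4a1 belong to families with close copies, among which counting with the 2 software versions could divide reads differently, so their values are uncertain. Among the largest rises by the rule, Chsy3, H2-Q7 and Zfpm2 beside Nkd1 had 68.7 to 103 CPM in GOF and no UMI in WT cycling cells, at least 46.6-fold to 69.9-fold higher in GOF, and H2-Q7 too has close copies.

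The WT cycling cells were not of 1 kind. Cxcl5 stood at 2172, 185 and 26.7 CPM in cycling cells of WT1, WT2 and WT3, and had UMIs in 126 of 262 cycling cells (48.1%) in GOF and in 53 of 54, 9 of 12 and 2 of 7 in WT. The peribiliary gland mucin gene Muc6 had UMIs in 24 of 262 cycling cells in GOF, 0 of 54 in WT1, 1 of 12 in WT2 and 5 of 7 in WT3. Its level was 19.3, 0, 33 and 1597 CPM in cycling cells of GOF, WT1, WT2 and WT3, against 34.9, 13.5, 57 and 393 CPM in their non-cycling cells, highest in WT3 in both classes. WT1 supplied 54 of the 73 WT cycling cells, so a WT average over cells would mostly be WT1, and the libraries were weighted as samples instead.

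The last comparison asked whether a gene's difference between cycling and non-cycling cells was itself different in GOF and WT. Of 14424 genes tested, 42 had a larger cycling effect in GOF and 22 a smaller one, 0.444% of genes called. This comparison depended on the method, with 1 gene called by DESeq2 and 0 without the replicate block, on single libraries, with 20 genes called without WT1 and 98 without WT3, and on cells carrying markers of other types, with 25 called without them. None of 50 S phase genes was among them by edgeR (median -0.27; 6 with an unadjusted p under 0.05; DESeq2 0), and of 49 G2 and M genes 4 had a smaller effect in GOF (median -0.43). The 4 were Ccnb2, Prc1, Nusap1 and Kif23. Ccnb2, cyclin B2, had 88.7, 133, 56.2 and 105 CPM in cycling cells of GOF, WT1, WT2 and WT3, against 2.43, 0.287, 0.833 and 0.828 CPM in their non-cycling cells (difference of log2 effects -2.53 ± 0.48; adjusted p = 9.28e-05). Pttg1, securin, outside the list, had 68.2, 129, 71 and 121 CPM in cycling cells of the 4 libraries in that order, against 18.9, 0.824, 2.6 and 3.72 CPM in non-cycling ones (-4.14 ± 0.40; adjusted p = 5.94e-21). For both genes the GOF library stood out in its non-cycling cells, where its level exceeded that of each WT library. After each cell was thinned, with non-cycling cells of matched depth, without WT1, or by DESeq2, 0 genes of the G2 and M list were called. Pttg1 passed in each of these settings except DESeq2.

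Reg3b and Reg3g had the opposite pattern. Reg3b had 394, 7.4, 20.7 and 8.04 CPM in cycling cells of GOF, WT1, WT2 and WT3, against 332, 82.1, 24.8 and 143 CPM in non-cycling cells (3.01 ± 0.45; adjusted p = 4.36e-08). In GOF the lectin was as high in cycling cells as beside them. In WT1 it was lower in cycling cells, on 10 UMIs. WT2 and WT3 held 7 and 1 Reg3b UMIs in cycling cells, in 1 of 12 and 1 of 7 cells, too few to set a direction. Reg3g differed by 2.06 ± 0.39 (adjusted p = 9.93e-05). Neither gene passed with DESeq2, and Reg3b did not pass without WT1 (1.86) or Reg3g without WT2 (1.66). Of 12 Wnt feedback genes, 0 had a cycling effect that differed between GOF and WT by edgeR (median 0.18; 1 with an unadjusted p under 0.05). Markers of fibroblasts (3 of 8), smooth muscle (2 of 6) and mesothelium (2 of 5) were called in this comparison, and 0 of them once cells carrying markers of other types were left out.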

How the data were processed

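Per the labels' protocols, mouse common bile ducts were digested with dispase and a protease and captured with the 10x 3′ v3 chemistry. Raw UMI counts, with 1 matrix per library, were deposited by the authors. The software version was 7.0.0 for GOF and 3.0.2 for WT, per the file headers, while the submitters' processing notes name Cell Ranger 7.1 and mm10. The sources used here do not say whether intronic reads were counted. The 30406 genes listed in both references were used, and 597 of them with different symbols took the WT symbol. Members, gene lists and tests were chosen with earlier results of these data known.

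Counts were summed per library and class and tested with edgeR 4.0.16 in R 4.3.3 (quasi-likelihood, TMM, filterByExpr, Benjamini-Hochberg adjusted p under 0.05), leaving out the 9 genes of the rule and gate. Cycling and non-cycling sums of a library were paired as a block, since both come from the same library; GOF and WT share a single replicate number and were not paired. The interaction fit used the same block, and the comparison within cycling cells had 2 residual degrees of freedom. Steps were tested on simulated data. Doublets were scored with Scrublet in scanpy 1.11.5 and the top 0.8% of barcodes per 1000 barcodes were left out in an alternative only. DESeq2 1.42.0, no TMM, no filter, 2 or 4 rule genes, thinning to 2000 UMIs, non-cycling cells of matched depth and leaving out libraries were the other alternatives; leaving out cells with at least 10 UMIs of other cell types' markers, leaving out WT2 and WT3 together, and the unthinned share over cells of at least 2000 UMIs were chosen after seeing the data.

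Named were the rule genes, the 10 largest rises and falls between classes (at least 20 CPM, alike in all 4 libraries), the 10 largest rises outside the cell cycle lists, the 5 largest each way in the other comparisons, up to 6 members per list, and Ccnd1, Myc, Cdkn1a, Cdkn1b, Axin2, Lgr5, Ctnnb1 and Prom1. Other genes were named after their values were seen. 1 gene that the rule names is not reported here. Promoters came from RefSeq (GRCm38.p6). The 4 printed were those with the highest cycling level in their list among genes with 1 listed start and the letters described. Their log2 fold change also had to reach 4 (G2 and M list) or 1 (S phase list), and 1 chromosome was left out of the choice.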

Additional observations from a re-analysis of the deposited data

Results flagged for a closer look

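The edgeR interaction test, with the library as a block, called 64 genes whose difference between cycling and non-cycling cells differed between GOF and WT. Flagged here are the 16 of them that had been picked for description (log2 effect in GOF minus that in WT). The GOF effect was smaller for the division genes Pttg1 (-4.14), Ccnb2 (-2.53), Gas2l3 (-2.40), Prc1 (-2.08), Nusap1 (-1.63) and Kif23 (-1.25). It was larger for the lectin genes Reg3b (3.01), Reg3g (2.06) and Reg2 (5.02) and for Bst2 (1.78), Mgp (4.68), Gpm6a (5.15) and Rnase1 (4.29). It was also larger for Krt14 (9.59), a basal keratin gene with no UMI in WT cycling cells, so that its fitted value is not a bound. Reg2 and Gpm6a held 1 UMI each and Mgp 2 UMIs in all WT cycling cells together, so their fitted values are uncertain as well. Over the alternative settings Mgp ranged from 0.18 to 11.9, Gpm6a from 1.38 to 11.2 and Reg2 from 3.71 to 9.70. The GOF effect was smaller for the immunoglobulin gene Igkc (-3.26) and for Arg1 (-2.76), of which WT2 held most.

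Pttg1 had 68.2 CPM in cycling and 18.9 CPM in non-cycling GOF cells, against 71.0 to 129 CPM and 0.824 to 3.72 CPM in the same classes of WT. Krt14 had UMIs in 23 of 262 GOF cycling cells. Nusap1, Kif23, Bst2, Mgp, Gpm6a and Arg1 did not pass once cells carrying markers of other cell types were left out. Of the 16 genes, Rnase1 alone passed with DESeq2, and none passed without the replicate block.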

How the results depend on the processing

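Between cycling and non-cycling cells edgeR called 1011 genes, DESeq2 545, edgeR with no replicate block 240 (236 higher), and leaving out 1 library gave 581 (without GOF) to 1208 (without WT3). For the difference of the cycling effect between GOF and WT, 64 genes were called, against 1 with DESeq2, 11 at matched depth, 0 with no replicate block (146 with an unadjusted p under 0.05), 29 after thinning, 25 without cells carrying markers of other types, and 20 (without WT1) to 98 (without WT3) on leaving out 1 library. Between GOF and WT cycling cells 513 genes were called, against 171 with DESeq2, 932 with no filter, 160 after thinning, and 376 (without WT1) to 1110 (without WT3) on leaving out 1 library. The GOF to WT ratio of cycling shares ranged from 3.95 (without WT3) to 6.50 (without WT1). Some differences changed sign. Between the classes, Saa3 was -0.93, Col1a1 -1.27 and Col1a2 -0.70 without cells carrying other markers, Col1a1 -0.27 and Col1a2 -0.046 with DESeq2, Acta2 -0.90 (without GOF) to 1.11 (without WT2) on leaving out 1 library, and Ins2 0.40 at matched depth. In the interaction, Rnase1 was -0.37 and Igkc 0.28 at matched depth. The cause of these changes was not tested. Of the settings tried for single genes, 860 of 1023 between the classes, 149 of 232 for the interaction and 370 of 392 between GOF and WT left both direction and call as they were. No paired analysis was possible because GOF and WT share only 1 replicate number. The 12 and 7 cycling cells of WT2 and WT3 limit the precision of low genes, where 1 UMI in WT3 is worth 8.49 CPM.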

Other observations

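The WT3 cycling cells carried several mucous genes at high levels, described here with no test. Spink4 stood at 66802 CPM in WT3 cycling cells and 15143 CPM in WT3 non-cycling cells, and Agr2, a protein disulfide isomerase of mucous cells, at 9496 and 1665 CPM. Leaving out WT3, 9 of 13 mucous genes were called lower in cycling than in non-cycling cells, against 2 lower and 1 higher with it. The 1 gene called higher, Tff1, a trefoil peptide, had 5.39, 5.98, 0 and 348 CPM in cycling cells of GOF, WT1, WT2 and WT3, against 2.2, 10.4, 6.67 and 42.4 CPM in their non-cycling cells.

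Dclk1, a microtubule-linked kinase also used as a tuft cell marker, was highest in GOF in both classes. Non-cycling cells held 6801 Dclk1 UMIs among 46947725 in GOF. Those of WT1, WT2 and WT3 held 801 among 30056613, 265 among 9941681 and 98 among 5508867. In cycling cells, Dclk1 had UMIs in 162 of 262 GOF cells (61.8%) and in 3 of 54, 5 of 12 and 1 of 7 cells of WT1, WT2 and WT3. Its level was 145 CPM in GOF and 12.1, 43.9 and 8.89 CPM in WT1, WT2 and WT3 (2.78 ± 0.56 on the log2 scale, edgeR adjusted p = 0.00931). It was the 1 called of 6 tested tuft list genes and was singled out after the values were seen. Of the others, Avil (adjusted p = 0.0561) had 35.4 CPM in GOF and 9.04, 9.4 and 0 CPM in WT1, WT2 and WT3, and Alox5ap had 13.8 CPM in GOF and 13.6, 97.1 and 8.89 CPM in WT1, WT2 and WT3 (-1.52).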
